A study of Mus musculus with 6 samples.

Results

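The genes described here encode 43 soluble hydrolases, hydrolase cofactors and membrane proteins of the lysosome. They were chosen by name, as the rows of the deposited TPM table whose gene symbol is on a fixed list, and all 43 were found among the 54532 genes of the table. The rule uses no measured value, but the list was put together with earlier results of these data known. The members comprise 11 cathepsins, 2 other peptidases, 10 glycosidases, 5 sulfatases, 4 lipid and thioester hydrolases, 4 soluble proteins that are not enzymes themselves and 7 membrane proteins. RNA-seq was carried out on primary bone-marrow-derived macrophages (BMDMs) of C57BL/6 mice, which are macrophages grown from marrow precursors in medium conditioned by a fibroblast line. There were 6 libraries in 3 groups of 2. Untreated BMDMs (Untr) received no agent, the LPS group received 100 ng/ml lipopolysaccharide for 2 h, and the Met + LPS group was given metformin (5 mM) over 6 h ahead of an identical LPS stimulation. LPS, from the cell envelope of Gram-negative bacteria, is sensed through TLR4, and metformin is an antidiabetic drug known to activate the kinase AMPK. The study asked how metformin pretreatment alters the acute transcriptional response to LPS. No library had metformin without LPS, so that an effect of metformin alone cannot be told apart from one that needs LPS. The replicates A and B of a group were seeded in duplicate, and no source used here says that they came from separate mice, so that p-values measure the spread between such libraries, which may be technical.

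Lysosomes are acidic organelles in which macrophages break down what they engulf and what autophagy delivers. Soluble hydrolases are made in the endoplasmic reticulum, sorted to the lysosome mostly by mannose 6-phosphate receptors, and are often activated there by proteolysis. Cathepsins are the main lysosomal proteases, glycosidases and sulfatases take apart glycans and glycosaminoglycans, and lipid hydrolases work together with small cofactor proteins that present lipids to them. Membrane proteins protect the limiting membrane and move ions and cholesterol across it. Many lysosomal genes carry an E-box with the core CACGTG in their promoters, the centre of the longer CLEAR element that is bound by TFEB and related factors.

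Promoter sequences of 38 of the 43 genes were available from RefSeq (GRCm38.p6), as windows of 250 bases before to 50 bases after each annotated transcript start. The palindrome CACGTG, which reads the same on both strands, was present in the windows of 13 of these 38 genes (34.2%), against 12.2% of the 9106 tested genes with a window and 8.09% of all 27025 genes with a window. The longer form GTCACGTG or its complement CACGTGAC, which contains the palindrome, was found for 10 members (26.3%), against 5.1% of tested genes and 2.55% of all genes. The 13 genes were Arsa, Ctsa, Ctsd, Ctsf, Ctsl, Gaa, Gla, Glb1, Lamp1, Lgmn, Mcoln1, Naglu and Sgsh. The 7 of them that differed between Met + LPS and LPS (values below) are shown with a single site each. Each site is 24 bases long, on the strand of the gene, with the E-box in capitals. The 7 genes were picked by this call, and a relation of the motif to a direction was not tested. Other called members, among them Neu1, Npc1, Gusb and Ids, had no such site in a window or had no window. For Gla (chrX:134601185-134601208, minus strand), Gaa (chr11:119267814-119267837, plus strand), Ctsl (chr13:64370742-64370765, minus strand) and Mcoln1 (chr8:3500465-3500488, plus strand), which were higher in Met + LPS, the E-box began at positions -194, -140, -236 and -45 relative to the RefSeq start. For Sgsh (chr11:119355525-119355548, minus strand), Ctsf (chr19:4855077-4855100, plus strand) and Ctsa (chr2:164833752-164833775, plus strand), which were lower, it began at positions -29, -79 and -12.
Gla: gatctcggtCACGTGagcaactct
Gaa: ctgtgcgatCACGTGtttgactct
Ctsl: gttagaagcCACGTGctgatctaa
Mcoln1: cgccccgctCACGTGaccgcggcg
Sgsh: cctgccgtgCACGTGaccgtgggg
Ctsf: cccgtggtcCACGTGcctcgcgta
Ctsa: gcaaactgtCACGTGatgcagatg
Only the sites of Gla, Mcoln1, Sgsh and Ctsa among these 7 matched the longer form. The Lamp1 window held the most E-boxes, 4 of them with first bases between positions -61 and -15. A match of these letters is a description of the window and not a measured binding site.

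The 43 genes were expressed in every library, each at 1 TPM or more, where TPM is the count of a gene divided by its length and scaled so that every library has the same sum. TPM values are per length and can be compared between genes, whereas a comparison between libraries depends on the scaling. The members together held 8.40% and 8.44% of the TPM in the untreated libraries, 6.17% and 6.13% in LPS and 6.31% and 6.34% in Met + LPS. Both stimulated groups were below the untreated libraries, with 0.731 times the untreated mean in LPS, and the Met + LPS mean was 1.03 times that in LPS. The median tested gene was also lower in LPS on this scale, with a log2 fold change of -0.48, as was the median member (-0.48). After the rescaling described below, these medians were -0.01 and 0.04. The lower share is therefore not particular to the members. The cathepsins alone held 3.87% and 3.88% of the TPM in untreated BMDMs, 2.96% and 2.98% in LPS and 2.86% and 2.92% in Met + LPS. In bulk libraries such as these, fewer cells of a type and less RNA per cell cannot be told apart.

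**Figure D1:**
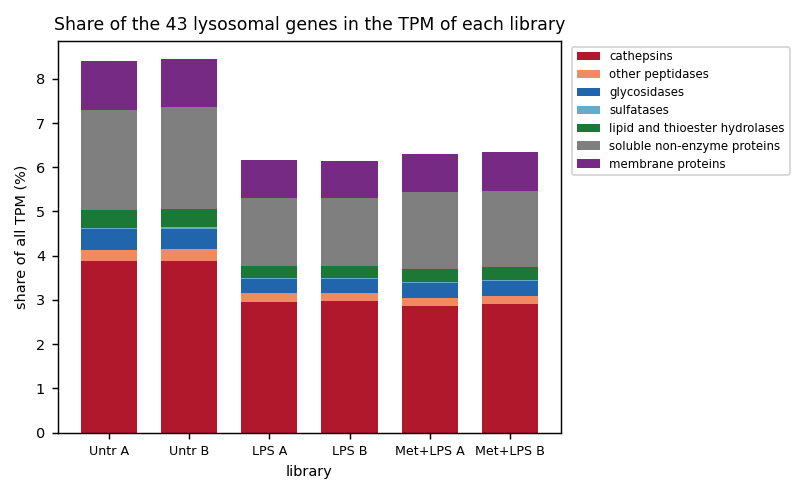
Share of all TPM (%, y axis) held by the 43 lysosomal genes in each of the 6 libraries (x axis), stacked by role. The stacks reach 8.40% and 8.44% in the untreated libraries and 6.13% to 6.34% in the other libraries, and the cathepsins are the largest role in every library. On this scale the median tested gene was also lower in LPS than in untreated BMDMs (log2 fold change -0.48).

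Psap, the precursor of the saposins that activate sphingolipid hydrolases, was the most abundant member, with 18779 and 19107 TPM in untreated BMDMs, 12381 and 12279 TPM in LPS and 14429 and 14273 TPM in Met + LPS. It ranked 3 among all genes of the table by mean TPM in untreated BMDMs. Ctsb, a cysteine protease with endo- and exopeptidase activity, had 12494 and 12759 TPM in untreated BMDMs, 9485 and 9477 TPM in LPS and 8562 and 8683 TPM in Met + LPS. Ctss, the cysteine protease that processes the invariant chain of MHC class II molecules, had 11740 and 11328 TPM, 9482 and 9507 TPM, and 9395 and 9429 TPM in the same order. Ctsb was above Ctss in both untreated libraries and below it in both Met + LPS libraries, and the levels of the pair overlapped in LPS. Together with Ctsd, the main aspartic protease of the lysosome (9614 and 9902 TPM in untreated BMDMs), these genes held between 60.8% and 62.9% of the members' TPM in every library. At the other end were the sulfatase Arsb, Ctsk and Ctsf, with means over all libraries of 16.1, 19.6 and 22.2 TPM. Even Ctsk rested on 179 or more recovered reads per library. Libraries A and B differed by a median of 0.03 to 0.05 on the log2(TPM + 1) scale over the members of a group, and by at most 0.27, for Sgsh in Met + LPS.

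Exon overlap with other genes touches some of these values, because no source used here states whether the reads were counted by strand. Sgsh shares 21.6% of its exonic bases with Card14 on the other strand, and Card14 itself was at 1.71 TPM or less in every library. Ctsa shares 17.4% with the genes Pltp and Neurl2 on the other strand, and Pltp was abundant, with 1566 and 1650 TPM in untreated BMDMs, 1110 and 1161 TPM in LPS and 761.7 and 730 TPM in Met + LPS. Ppt1 shares 3.51% with Cap1 on the other strand. Cap1 had 901 and 892 TPM in untreated BMDMs and 781 and 766 TPM in LPS. In Met + LPS it had 570 and 544 TPM. The part of Pltp reads in the Ctsa values and of Cap1 reads in the Ppt1 values was not tested. Ctsd shares 34.4% of its exonic bases with a predicted gene on its own strand, and Ctsl and Arsb share 26.9% and 39.9% with predicted genes on the other strand, all of which were at 0.224 TPM or less.

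The comparison of LPS with untreated BMDMs asks what LPS itself does to these transcripts within 2 h. On the TPM scale as deposited, 41 of the 43 genes were lower in LPS, Ctsc was higher and Npc2 missed the cut-off, at an adjusted p under 0.01 in limma with Benjamini-Hochberg adjustment over 12755 tested genes. By the same rule 60.1% of all tested genes were lower and 16.2% were higher, so that a larger share of the members was called lower and a smaller share higher. The median log2 fold change was -0.48 for the members and -0.48 for all tested genes. When the libraries were rescaled by the median ratio over genes, which brings the median gene to -0.01, the members had a median of 0.04, 24 of the 43 changed sign, 11 were higher (30.6% of all tested genes) and 8 were lower (27.6%). Each LPS value below is therefore given on both scales. The study used an absolute log2 fold change of 2 as its cut-off for an LPS response, on fold changes from DESeq2 and not from TPM. On the TPM scale as deposited none of the members reached 2, against 6.08% of tested genes, and the nearest, Sgsh, had -1.96. No choice of p could move this count of 0, since no member reached the fold in this limma fit. Sgsh was just past it with a pseudocount of 0.1 TPM (-2.02) and with voom on recovered reads, and Ctsc after rescaling (2.02).

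Cathepsins included the only member that rose on both scales. Ctsc (cathepsin C, chr7:88278085-88310888), which activates the serine proteases of granulocytes and cytotoxic cells by trimming their N-termini, had 77.7 and 77.1 TPM in untreated BMDMs, 222 and 220 TPM in LPS and 237 and 252 TPM in Met + LPS. Both LPS libraries lay far above both untreated libraries. The log2 fold change was 1.5 (SE 0.04, adjusted p = 2.1e-07 in limma) and 2.02 after rescaling, and the mean in LPS was 2.86 times that in untreated BMDMs. The other 10 cathepsins were all lower on the TPM scale, with log2 fold changes from -0.63 for Ctsf to -0.19 for Ctsz, and after rescaling none of them was lower by the test, whereas Ctsh, Ctso, Ctss and Ctsz were higher, with 0.32, 0.19, 0.25 and 0.34. Ctsz (cathepsin Z, a carboxypeptidase, chr2:174427493-174439039) had 3044 and 3042 TPM in untreated BMDMs, 2721 and 2623 TPM in LPS and 3152 and 3256 TPM in Met + LPS. Ctss had a log2 fold change of -0.28 (SE 0.04, adjusted p = 2.8e-04) as deposited, and Ctsb had -0.41 (SE 0.03, adjusted p = 3.4e-05), with 0.11 after rescaling (adjusted p = 0.0199). The other peptidases Lgmn, an asparaginyl endopeptidase, and Tpp1, a tripeptidyl peptidase, were at -0.50 and -0.49 as deposited and at 0.03 and 0.04 after rescaling, close to the median gene on both scales.

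**Figure D2:**
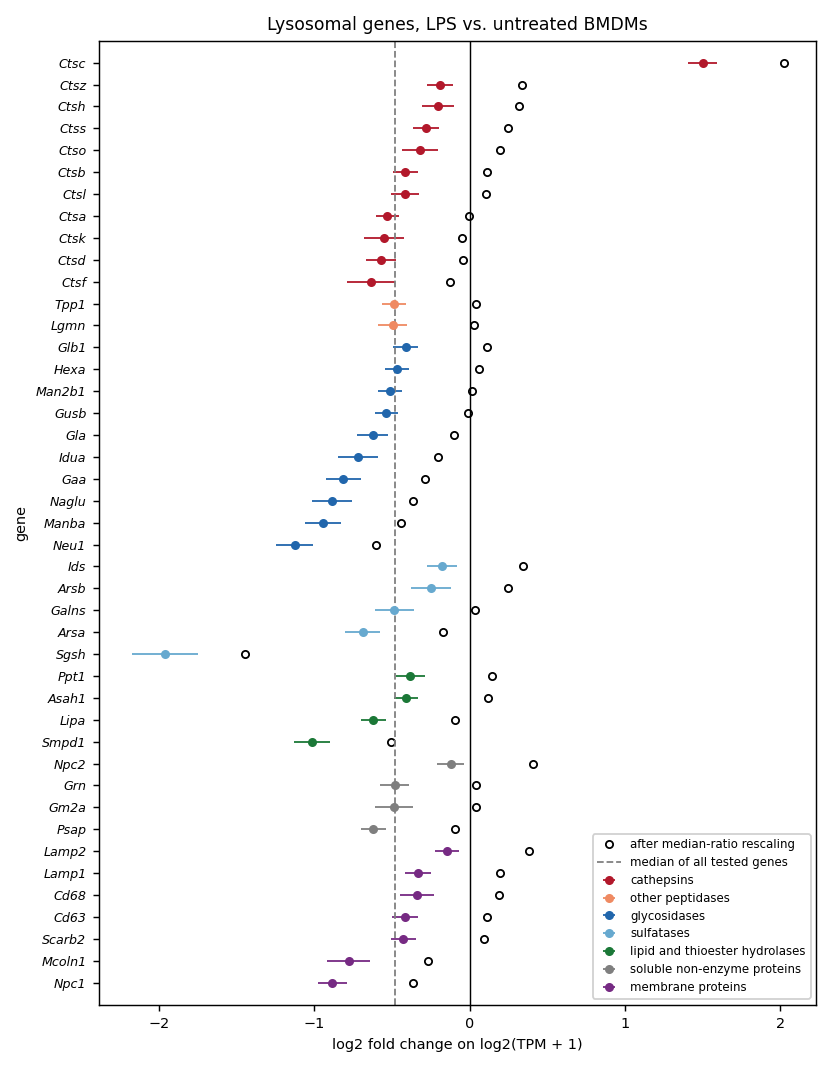
Log2 fold change of each of the 43 genes in LPS over untreated BMDMs (x axis, log2(TPM + 1) scale) by gene (y axis), with filled points for TPM as deposited, bars for the 95% confidence interval in limma (n = 2 libraries a group) and open circles for the same value after median-ratio rescaling. The dashed line is the median of all tested genes, -0.48. Ctsc lies to the right of 0 on both scales, Sgsh, Neu1, Smpd1 and Manba lie farthest to the left on both, and 24 genes change sign between the scales.

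Glycosidases, which cleave sugar residues from glycans, had a median log2 fold change of -0.67 as deposited and -0.15 after rescaling, beside -0.48 and -0.01 for all tested genes. All 10 were lower on the TPM scale, and Neu1, Manba, Naglu and Gaa remained lower by the test after rescaling, whereas Glb1, Hexa and Man2b1 changed sign, to 0.11, 0.06 and 0.01, without passing it. Neu1 (chr17:34931253-34935953), the lysosomal sialidase that removes terminal sialic acids, had 129 and 136 TPM in untreated BMDMs and 57.8 and 62.4 TPM in LPS, which is 45.4% of the untreated mean. Its log2 fold change was -1.13 (SE 0.05, adjusted p = 2.3e-06) and -0.61 after rescaling. Manba (chr3:135485611-135571404), a beta-mannosidase, had 36.7 and 34.9 TPM in untreated BMDMs, 18.3 and 17.9 TPM in LPS and 22.0 and 21.6 TPM in Met + LPS. The LPS change of Manba was -0.95 (SE 0.05, adjusted p = 4.1e-06) and -0.44 after rescaling. Naglu (chr11:101070012-101077672), the alpha-N-acetylglucosaminidase of heparan sulfate breakdown, had 287 and 286 TPM in untreated BMDMs, 150 and 160 TPM in LPS and 142 and 129 TPM in Met + LPS, with a log2 fold change of -0.89 (SE 0.05, adjusted p = 8.9e-06) in LPS over untreated BMDMs and -0.36 after rescaling.

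The sulfatases, which remove sulfate groups mainly from glycosaminoglycans and sulfolipids, held both the largest decrease and some of the smallest. Sgsh (N-sulfoglucosamine sulfohydrolase, a heparan sulfate enzyme, chr11:119343425-119355536) had 70.3 and 70.4 TPM in untreated BMDMs, 17.8 and 16.9 TPM in LPS and 8.42 and 6.81 TPM in Met + LPS. The 3 groups did not overlap, and the LPS mean was 24.6% of the untreated mean. Its log2 fold change in LPS was -1.96 (SE 0.09, adjusted p = 2.6e-06) as deposited and -1.45 after rescaling. In contrast, Ids (iduronate 2-sulfatase, chrX:70343069-70365084), which acts on the same glycosaminoglycans, had 95.8 and 93.6 TPM in untreated BMDMs and 85.6 and 81.5 TPM in LPS, a log2 fold change of -0.18 (SE 0.04, adjusted p = 0.0046) that became 0.34 after rescaling (adjusted p = 2.5e-04). Arsb, the N-acetylgalactosamine 4-sulfatase, had a like pair of values, -0.25 and 0.25. Arsa, the arylsulfatase of sulfatide breakdown, and Galns, which acts on keratan sulfate, had -0.69 and -0.48 as deposited and -0.17 and 0.04 after rescaling.

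Among the lipid and thioester hydrolases, Smpd1 (acid sphingomyelinase, chr7:105554360-105558389) had 42.96 and 40.2 TPM in untreated BMDMs, 20.0 and 20.2 TPM in LPS and 21.8 and 21.4 TPM in Met + LPS. It was lower on both scales, with a log2 fold change of -1.01 (SE 0.05, adjusted p = 3.4e-06) as deposited and -0.51 after rescaling. Lipa (acid lipase), Asah1 (acid ceramidase) and Ppt1 (a palmitoyl-protein thioesterase) were at -0.62, -0.41 and -0.38 as deposited, and at -0.09, 0.12 and 0.14 after rescaling, where none passed the test. Of the soluble proteins that are not enzymes, Npc2 (chr12:84754562-84773152), which hands cholesterol to Npc1, had 823 and 808 TPM in untreated BMDMs, 729 and 771 TPM in LPS and 750 and 742 TPM in Met + LPS. Its log2 fold change of -0.12 (SE 0.04, adjusted p = 0.0182) became 0.41 after rescaling (adjusted p = 1.1e-04). Psap, Gm2a, the activator of ganglioside breakdown, and Grn, the progranulin precursor, were at -0.62, -0.48 and -0.48 as deposited and at -0.09, 0.04 and 0.04 after rescaling.

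Of the membrane proteins, 7 of 7 were lower as deposited, and after rescaling 3 were higher and 2 lower. The abundant structural proteins Lamp1, Lamp2 and Cd68 were lower as deposited, with -0.33, -0.14 and -0.34, and higher after rescaling, with 0.19, 0.38 and 0.19. Lamp2 (chrX:38401357-38456454), which also serves chaperone-mediated autophagy, had 299 and 291 TPM in untreated BMDMs, 270 and 264 TPM in LPS and 285 and 280 TPM in Met + LPS. By contrast, the transport proteins Npc1, which exports cholesterol, and Mcoln1, a cation channel that releases calcium, were lower on both scales, with -0.89 and -0.78 as deposited and -0.36 and -0.26 after rescaling. The tetraspanin Cd63 and Scarb2, the receptor that carries glucocerebrosidase to the lysosome, were at -0.41 and -0.43 as deposited and at 0.11 and 0.09 after rescaling. Without an untreated or an LPS library, between 35 and 39 members were lower as deposited. The calls of Arsb and Lamp2 were lost without any of the untreated or LPS libraries, that of Ctsh without untreated A, untreated B or LPS A, that of Ids without untreated A, untreated B or LPS B, that of Ctsz without untreated A or untreated B, and that of Ctso without untreated B, while Npc2 passed the cut-off without LPS B (adjusted p = 0.0068).

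The comparison of Met + LPS with LPS asks what metformin pretreatment changes in the presence of LPS. Of the 43 genes, 10 were higher in Met + LPS (14.5% of all tested genes) and 8 were lower (18.0%), at an adjusted p under 0.01. The 10 genes that rose were Neu1, Gla, Npc1, Ctsl, Gaa, Mcoln1, Ctsz, Manba, Psap and Lipa. The 8 that fell were Sgsh, Ctsf, Ids, Gusb, Scarb2, Ppt1, Man2b1 and Ctsa. The median log2 fold change was 0.00 over the members and -0.03 over all tested genes, and rescaling moved the members' median only to 0.02. Sgsh alone passed the cut-off of 0.7, which the study used on fold changes from DESeq2, against 8.28% of tested genes. The fold of the group means ranged from 0.440 for Sgsh to 1.58 for Neu1. Ctsl, Gaa, Gla, Neu1 and Npc1 remained higher and Gusb, Ids and Sgsh remained lower, each at an adjusted p under 0.01, under all 15 other settings of the processing, which include leaving out each library.

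Among glycosidases 4 rose and 2 fell. Gla (alpha-galactosidase A, chrX:134588149-134601125), which removes terminal galactose from globotriaosylceramide, had 319 and 321 TPM in untreated BMDMs, 206 and 209 TPM in LPS and 322 and 299 TPM in Met + LPS. Both Met + LPS libraries were far above both LPS libraries and lay on either side of the untreated values. Over LPS, the log2 fold change was 0.58 (SE 0.04, adjusted p = 1.0e-04), and an E-box site of its promoter window is shown above. Neu1 had 94.2 and 96.1 TPM in Met + LPS against 57.8 and 62.4 TPM in LPS, the largest increase of the members at 0.66 (SE 0.05, adjusted p = 1.2e-04). Gaa (acid alpha-glucosidase, which degrades lysosomal glycogen, chr11:119267887-119285454) had 149 and 150 TPM in untreated BMDMs, 81.0 and 88.5 TPM in LPS and 111 and 110 TPM in Met + LPS, with an increase of 0.38 (SE 0.05, adjusted p = 9.4e-04) over LPS. Manba rose by 0.26 (adjusted p = 0.0050). Gusb (beta-glucuronidase, chr5:129989011-130003049) went the other way, with 653 and 675 TPM in untreated BMDMs, 457 and 458 TPM in LPS and 379 and 383 TPM in Met + LPS, which gave -0.26 (SE 0.03, adjusted p = 7.0e-04). Man2b1, an alpha-mannosidase, had -0.18 (adjusted p = 0.0041). Idua, Glb1, Hexa and Naglu did not pass the test, with 0.24, 0.10, 0.05 and -0.19.

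**Figure D3:**
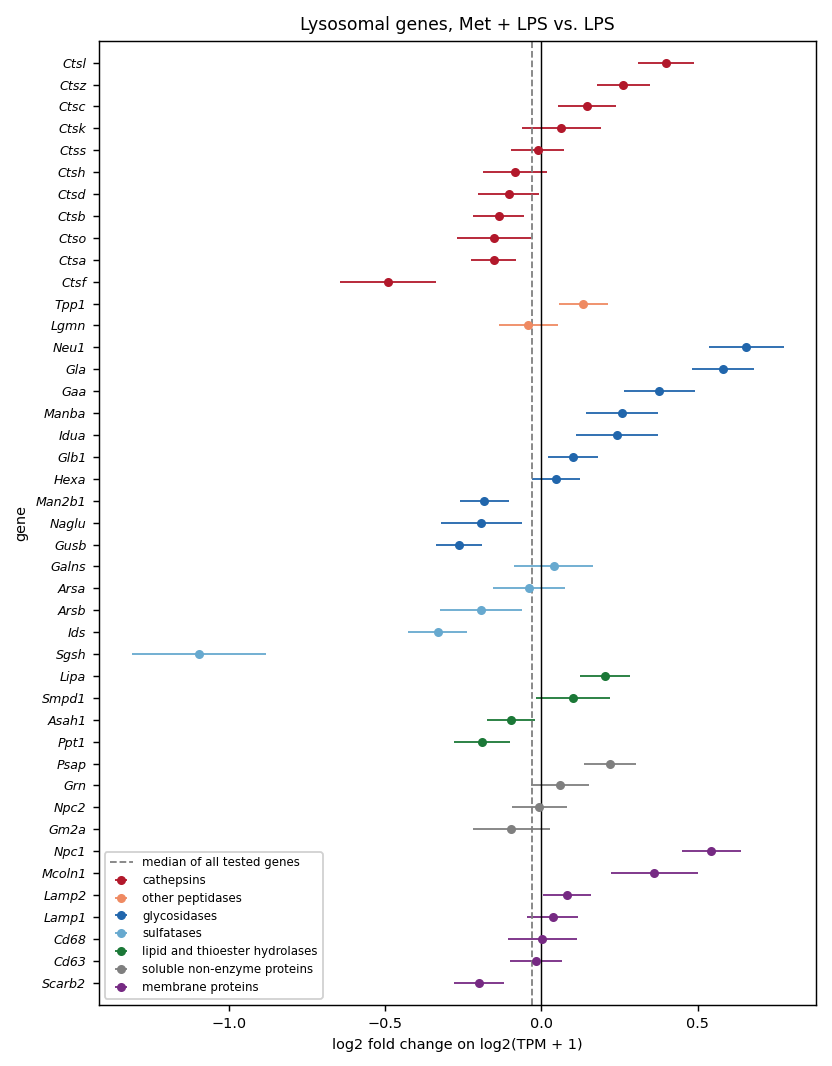
Log2 fold change of each of the 43 genes between Met + LPS and LPS (x axis, log2(TPM + 1) scale, TPM as deposited) by gene (y axis), with bars for the 95% confidence interval in limma (n = 2 libraries a group) and a dashed line at the median of all tested genes, -0.03. Every role has genes on both sides of 0, Neu1, Gla and Npc1 lie farthest to the right, and Sgsh lies alone at -1.09.

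Cathepsins were split in the same way, with 2 that rose and 2 that fell of 11. Ctsl (cathepsin L, a cysteine endopeptidase, chr13:64359337-64370890) had 431 and 415 TPM in untreated BMDMs, 323 and 310 TPM in LPS and 410 and 424 TPM in Met + LPS, which made a log2 fold change of 0.40 (SE 0.04, adjusted p = 2.9e-04) over LPS. Its Met + LPS values were above both LPS values and overlapped the untreated ones. Ctsz rose by 0.26 (SE 0.03, adjusted p = 0.0012), and the Met + LPS libraries, at 3152 and 3256 TPM, were above the untreated ones. Ctsf (a cysteine protease of low abundance here, chr19:4855129-4860912) had 32.9 and 31.2 TPM in untreated BMDMs, 19.3 and 21.4 TPM in LPS and 13.9 and 14.5 TPM in Met + LPS, with a log2 fold change of -0.49 (SE 0.06, adjusted p = 0.0012). Ctsa, a carboxypeptidase that also protects Neu1 and Glb1 in a complex, had -0.15 (adjusted p = 0.0059), which missed the cut-off after rescaling (adjusted p = 0.0101) and whose gene overlaps Pltp as described. The 3 most abundant cathepsins did not pass the test. Ctsb, Ctss and Ctsd had log2 fold changes of -0.14, -0.01 and -0.10, with adjusted p = 0.0153, 0.795 and 0.0741, and the 95% interval for Ctss was -0.10 to 0.07. Ctsc was at 0.15 (adjusted p = 0.0210).

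Sgsh fell further in Met + LPS, to 44.0% of the LPS mean and 10.8% of the untreated mean. Its log2 fold change over LPS was -1.09 (SE 0.09, adjusted p = 1.7e-04), the largest of the 43 genes in either direction, and it rested on 266 or more reads per library. Ids had 66.9 and 65.5 TPM in Met + LPS against 85.6 and 81.5 TPM in LPS, giving a log2 fold change of -0.33 (SE 0.04, adjusted p = 7.8e-04). None of the other sulfatases passed the test, with -0.19 for Arsb, -0.04 for Arsa and 0.04 for Galns. Heparan sulfate is degraded by enzymes that include Sgsh, Ids, Gusb, Naglu and Idua. The members of this set, which was put together after the values were seen, were lower for the former 3 and did not pass the test for Naglu (-0.19, adjusted p = 0.0246) and Idua (0.24, adjusted p = 0.0107).

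The cholesterol exporter Npc1 had 180 and 180 TPM in untreated BMDMs, 98.7 and 95.4 TPM in LPS and 146 and 138 TPM in Met + LPS. It rose by 0.54 on the log2 scale over LPS (SE 0.04, adjusted p = 1.0e-04), whereas its soluble partner Npc2 was at -0.01 (adjusted p = 0.889, 95% interval -0.09 to 0.08). Mcoln1 had 50.2 and 51.7 TPM in untreated BMDMs, 30.9 and 27.8 TPM in LPS and 38.0 and 37.8 TPM in Met + LPS, an increase of 0.36 (SE 0.06, adjusted p = 0.0026). Scarb2 (chr5:92441314-92506833) fell from 91.7 and 89.3 TPM in LPS to 78.1 and 79.1 TPM in Met + LPS, against 122 and 122 TPM in untreated BMDMs, with a log2 fold change of -0.20 (SE 0.03, adjusted p = 0.0031). Lamp1, Lamp2, Cd63 and Cd68 were between -0.02 and 0.08 and did not pass the test. Psap and Lipa, both abundant, rose by 0.22 (SE 0.03, adjusted p = 0.0025) and 0.20 (adjusted p = 0.0029). Ppt1, whose gene overlaps Cap1 as described, had -0.19 (adjusted p = 0.00645). Smpd1, Asah1, Gm2a, Grn, Tpp1 and Lgmn had values between -0.10 and 0.13 without passing the test.

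Many of the smaller calls in this comparison were lost with fewer libraries. Without untreated A, untreated B, LPS A, LPS B, Met + LPS A or Met + LPS B, the higher genes numbered 6, 6, 9, 8, 6 and 5 in place of 10, and the lower genes numbered 4, 4, 4, 4, 3 and 4 in place of 8. Ctsa, Man2b1, Manba, Ppt1 and Scarb2 missed the cut-off without any single library, Lipa without any library except LPS A, Mcoln1 and Psap without an untreated or a Met + LPS library, Ctsz without Met + LPS B and Ctsf without Met + LPS A (adjusted p = 0.0105). Without LPS B the cut-off of 0.7 was passed by 2 genes, Neu1 in addition to Sgsh.

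**Figure D4:**
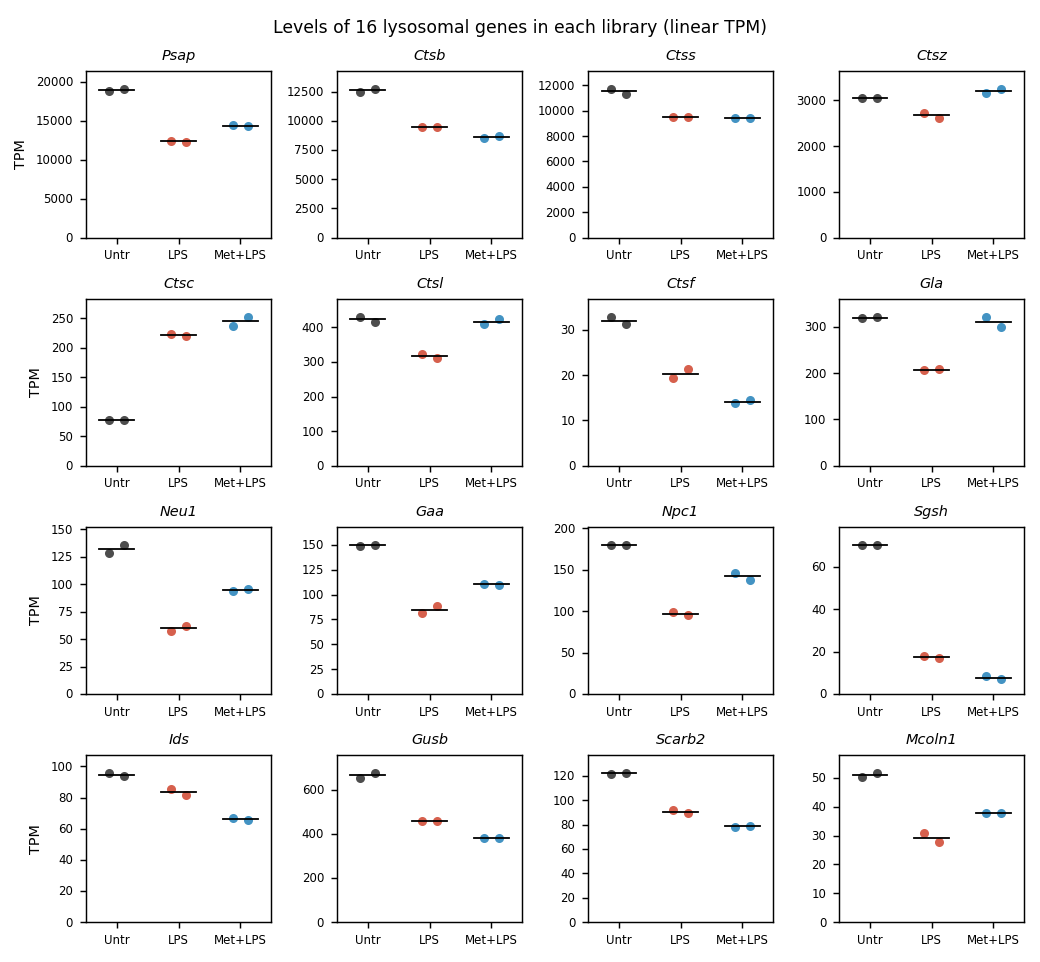
TPM (y axis, linear, from 0) of 16 lysosomal genes in the untreated, LPS and Met + LPS libraries (x axis), with a point for each library and a line at the mean of a group (n = 2). On this scale, TPM as deposited, Gla and Ctsl in Met + LPS overlap the untreated libraries, Ctsz lies above them, Neu1, Gaa, Npc1, Mcoln1 and Psap lie between LPS and untreated, and Sgsh, Ctsf, Ids, Gusb, Scarb2 and Ctsb are lowest in Met + LPS.

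Met + LPS was also compared with untreated BMDMs. On the TPM scale 37 members were lower (58.8% of all tested genes), Ctsc was higher (16.3%), and the members' median was -0.45, against -0.48 for all tested genes. After rescaling, 14 were higher (33.4%) and 8 were lower (29.7%). The 5 genes that passed in neither direction as deposited were Gla, Ctsl, Ctsz, Lamp2 and Npc2. The difference of Gla was -0.04 with a 95% interval from -0.14 to 0.06 (adjusted p = 0.369), and that of Ctsl was -0.02 with an interval from -0.11 to 0.07 (adjusted p = 0.628). After rescaling both were higher than in untreated BMDMs, with 0.50 and 0.52. Ctsz was at 0.07 (adjusted p = 0.0868) as deposited and at 0.61 after rescaling. Sgsh had the lowest value on both scales, -3.06 as deposited and -2.54 after rescaling, and Ctsc the highest, 1.65 and 2.18. Ctsf, Gusb, Naglu, Smpd1, Arsa, Man2b1 and Ctsa were, with Sgsh, the 8 genes lower on both scales. All 3 comparisons draw on shared libraries, so that their values are set side by side and no relation between them was computed.

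Other genes of the lysosome, from lists written with earlier results of these data known, also had calls in both directions, as did tested genes at large. Of all tested genes, 60.1% were lower and 16.2% higher in LPS on the TPM scale, and 27.6% and 30.6% after rescaling. In Met + LPS against LPS, 14.5% were higher and 18.0% lower. The counts of each list below are to be read beside these shares. Of 23 further hydrolases, 20 were lower and 2 higher in LPS on the TPM scale, against 6 lower and 7 higher after rescaling, and in Met + LPS against LPS 5 were higher and 4 lower. Acp5, the tartrate-resistant acid phosphatase, rose in LPS, with 2.28 as deposited and 2.76 after rescaling. The hyaluronidase Hyal1 and the phospholipase Pla2g15 fell in LPS, with log2 fold changes of -2.22 and -1.58 as deposited and of -1.74 and -1.05 after rescaling, and were higher in Met + LPS than in LPS, by 0.83 and 0.76 (adjusted p = 1.3e-04 and 8.9e-05). Of 19 further membrane proteins tested, 15 were lower and 3 higher in LPS (7 and 5 after rescaling), and 5 were higher and 4 lower in Met + LPS. The cystine exporter Ctns had 28.2 and 26.9 TPM in LPS and 47.5 and 43.4 TPM in Met + LPS, an increase of 0.70 (adjusted p = 1.3e-04), and the channel Mcoln2 had -0.64 (adjusted p = 1.2e-04), opposite to the member Mcoln1. Of 11 genes of sorting to the lysosome, 10 were lower and 1, the cation-dependent mannose 6-phosphate receptor M6pr, was higher in LPS as deposited (3 lower and 3 higher after rescaling), while Met + LPS had 4 higher, among them Gnptab with 0.37, and 1 lower, Sort1 with -0.50. Of 5 cathepsin inhibitors tested, 1 was higher and 4 were lower in LPS as deposited, against 3 higher and 0 lower after rescaling. Cst7 rose in LPS by 2.69 as deposited and by 3.15 after rescaling. In Met + LPS over LPS Cst3 alone passed the test, with -0.29 (adjusted p = 4.3e-04), and Cst7 had -0.47 (adjusted p = 0.0121).

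Markers of the labelled cell type were present. All 8 macrophage markers were at 1 TPM or more in every library, with summed levels of 38659 and 40782 TPM in untreated BMDMs, 32944 and 32841 TPM in LPS and 26123 and 26160 TPM in Met + LPS. Most of each sum was Lyz2, a lysozyme whose reads may be split with its close copy Lyz1, with 33981 and 35844 TPM, 26974 and 26696 TPM, and 21203 and 21381 TPM in the same order. In LPS over untreated BMDMs, 2 of the 8 markers were higher and 5 were lower on the TPM scale, against 4 higher and 2 lower after rescaling. The 2 higher as deposited were Adgre1 with 0.15 and Cd14 with 1.53 (0.68 and 2.06 after rescaling), and Lyz2 went from -0.38 to 0.15. In Met + LPS over LPS, 6 of the 8 markers were lower on both scales and none was higher. The part of these markers in the values of the lysosomal genes was not tested. The 6 neutrophil and precursor markers summed to 20.4 and 21.5 TPM, 9.76 and 15.2 TPM, and 21.5 and 22.3 TPM in the same order, and the 5 osteoclast markers, a list that holds Acp5, to 12.7 and 12.7 TPM, 44.9 and 45.3 TPM, and 33.8 and 35.3 TPM. Markers of T cells summed to 6.92 TPM or less and those of dendritic, B, erythroid, mast and fibroblast cells to 2.13 TPM or less, with Hbb-bt, Mcpt4 and Fcer1a at 0 in all libraries. Reads recovered from the TPM values numbered 25457016 to 30762754 per library.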

How the data were processed

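Poly-A libraries were sequenced from a single end, and the authors mapped the reads to the mouse genome GRCm38 (annotation release 94) with STAR 2.6.1d, used SAMtools 1.9, counted reads per gene with featureCounts of Subread 1.6.3 and deposited TPM values, with replicates kept apart. How the counts became TPM is not given in the sources used here, and TPM does not show differences in RNA per cell. Since the values are not counts, limma 3.58.1 (R 4.3.3) was run on log2(TPM + 1) for the 12755 genes that reached 1 TPM in 2 or more libraries, a scale that understates changes of low genes. All 6 libraries entered a common fit with a mean-variance trend and 3 residual degrees of freedom, and p-values were adjusted over all tested genes (Benjamini-Hochberg). A gene was called at an adjusted p under 0.01. With 2 libraries against 2, a two-sided exact permutation test cannot go below p = 0.333, and the p-values lean on the pooled spread of many genes.

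Depth was recovered as whole reads from TPM times the exon length (GENCODE M21, 54495 genes), and 97.1% to 97.6% of values under 500 reads were whole within 0.02. Median-ratio rescaling divided each library by its median ratio to the geometric mean over genes above 0 in every library. Fully described genes are the 3 most abundant members, those past the study's fold cut-offs, and the 5 largest increases and decreases in LPS vs. untreated (the least decreased where fewer rose) and in Met + LPS vs. LPS. The members, lists and this rule were chosen with earlier results of these data known. Other genes of a list are named by at most 2 called genes per comparison unless stated. The script was tested on simulated data. Alternatives were a pseudocount of 0.1, no filter, at least 5 TPM, median-ratio rescaling, a block for the replicate letter, fits of the compared groups, no trend, a cut-off of 0.05, voom on the recovered reads with and without rescaling, and leaving out each library. Python 3.11.15, pandas 2.3.3 and matplotlib 3.10.9 were used for summaries and plots.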

Additional observations from a re-analysis of the deposited data

How the results depend on the processing

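Directions in LPS vs. untreated BMDMs depend on the scaling, those in Met + LPS vs. LPS depend mainly on how many small changes pass the cut-off, and the cause was not tested. After median-ratio rescaling, 11 members were higher and 8 lower in LPS (15 and 12 with voom and the same rescaling), with a median of 0.04 under both, and 14 were higher and 8 lower in Met + LPS vs. untreated (18 and 10 with voom), with medians of 0.067 and 0.068. Under rescaling, with limma and with voom, LPS values changed sign to 0.11 and 0.11 for Ctsb, 0.32 and 0.32 for Ctsh, 0.11 and 0.11 for Ctsl, 0.19 and 0.20 for Ctso, 0.25 and 0.25 for Ctss, 0.34 and 0.34 for Ctsz, 0.031 and 0.031 for Lgmn, 0.040 and 0.040 for Tpp1, 0.11 and 0.11 for Glb1, 0.061 and 0.061 for Hexa, 0.013 and 0.012 for Man2b1, 0.25 and 0.26 for Arsb, 0.036 and 0.036 for Galns, 0.34 and 0.35 for Ids, 0.14 and 0.14 for Ppt1, 0.12 and 0.12 for Asah1, 0.040 and 0.040 for Gm2a, 0.044 and 0.044 for Grn, 0.41 and 0.41 for Npc2, 0.19 and 0.19 for Lamp1, 0.38 and 0.38 for Lamp2, 0.094 and 0.095 for Scarb2, 0.11 and 0.11 for Cd63, and 0.19 and 0.19 for Cd68. In Met + LPS vs. LPS, Ctss went to 0.0015 and 0.0014 and Npc2 to 0.0068 and 0.0068. In Met + LPS vs. untreated, only Gla, Ctsl, Ctsz, Lamp2, Npc2, Sgsh, Ctsf and Ctsc were followed over the settings. Of these, Ctsl went to 0.52 and 0.52, Gla to 0.50 and 0.50, Npc2 to 0.41 and 0.41 and Lamp2 to 0.48 and 0.48. Many other members also changed sign in that comparison with limma after rescaling, such as Npc1 (-0.34 to 0.20) and Psap (-0.40 to 0.14). Others, such as Gusb (-0.80 to -0.26), did not.

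The absolute log2 fold change of 2 in LPS was passed by 1 member with a pseudocount of 0.1 and with voom (Sgsh), and by 1 after rescaling with limma and with voom (Ctsc). In Met + LPS vs. LPS, 5 members were higher and 5 lower without a filter, 6 and 4 in a fit of the compared groups, and 5 and 4 without a trend, and 14 were higher and 13 lower at an adjusted p under 0.05. Leaving out a library gave 5 to 9 higher and 3 to 4 lower members and 1 to 2 past the cut-off of 0.7. Over the same settings, values near 0 in Met + LPS vs. LPS ranged from -0.087 to 0.0041 for Lgmn, -0.094 to 0.016 for Arsa, -0.048 to 0.034 for Npc2, -0.056 to 0.062 for Cd68 and -0.028 to 0.11 for Galns, and in Met + LPS vs. untreated from -0.048 to 0.0068 for Ctsl and -0.096 to 0.011 for Gla. Over all tested genes, same-lettered libraries did not deviate together (correlations of A minus B between groups of -0.0037, 0.028 and 0.0062). These values cannot show whether libraries of a letter shared a preparation. With the replicate block, 10 members were higher and 7 lower in Met + LPS vs. LPS, and no member of LPS vs. untreated changed its call. At this depth each member had 179 or more reads per library.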
